A study of Sus scrofa with 24 samples.

Results

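The muscle miRNAs described here are the rows of the deposited miRNA table named ssc-miR-1, ssc-miR-133a, ssc-miR-133b, ssc-miR-206, ssc-miR-208b or ssc-miR-499, with any arm suffix. The names found 7 of the 1587 entries: ssc-miR-1, ssc-miR-133a-3p, ssc-miR-133a-5p, ssc-miR-133b, ssc-miR-206, ssc-miR-499-5p and ssc-miR-499-3p. Of the 6 names, 5 had rows, and ssc-miR-208b was not analysed here. The cells were primary cultures from Yorkshire piglets 6 days of age, taken from back subcutaneous fat (BF) or from the longissimus dorsi muscle (intramuscular fat, IMF) after collagenase digestion. The muscle was digested for longer and with more collagenase than the fat, so digestion differed between the sources. Both sources were under the same culture scheme. Adipogenic induction with 3-isobutyl-1-methylxanthine, dexamethasone and insulin ran from day 0 for 2 days, then medium with insulin for the next 2 days, then growth medium. The day 0 groups were taken before induction had begun. The 8 groups, BF-0d, BF-2d, BF-4d, BF-8d, IMF-0d, IMF-2d, IMF-4d and IMF-8d, held 3 libraries each. The cells came from 3 piglets, and the labels do not link a library to a piglet, so the spread between libraries may be partly technical. As a model, such cultures hold whatever cells of the tissue attached and grew, and no sorting step is named.

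A miRNA guides the Argonaute complex to mRNAs that pair with its seed, bases 2 to 8, and lowers their translation and stability. miR-1, miR-133, miR-206, miR-208 and miR-499 are known as myomiRs because they are abundant in heart or skeletal muscle and are switched on by MyoD, MEF2 and SRF. miR-1 and miR-206 favour myoblast differentiation, miR-133 favours myoblast proliferation, and miR-208b and miR-499 lie in introns of myosin heavy chain genes and belong to the slow fibre program. In fat, miR-133 is known as a repressor of Prdm16, a switch between the muscle and brown fat fates.

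The mature sequences are shown because they decide which entries could share reads and targets. They are read 5′ to 3′ from Sscrofa11.1 at the RefSeq miRNA genes, as DNA letters, with the seed in capitals.
ssc-miR-1: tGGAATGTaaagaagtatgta
ssc-miR-206: tGGAATGTaaggaagtgtgtga
ssc-miR-133a-3p: tTGGTCCCcttcaaccagctg
ssc-miR-133b: tTTGGTCCccttcaaccagctat
ssc-miR-133a-5p: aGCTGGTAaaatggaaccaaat
ssc-miR-499-5p: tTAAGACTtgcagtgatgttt
ssc-miR-499-3p: aACATCACagcaagtctgtgct
ssc-miR-208b: aTAAGACGaacaaaaggtttgt
ssc-miR-1 and ssc-miR-206 shared the seed and differed by 3 substitutions over the length of ssc-miR-1, A11G, A17G and A21G, counted from the 5′ end with the base of ssc-miR-1 first. ssc-miR-133a-3p and ssc-miR-133b shared a run of 20 bases that starts at base 1 of the former and base 2 of the latter. Their annotated starts are offset by 1 base, and their seeds as annotated therefore differ. A read that ended before the last bases could have come from either of these, and how such reads were divided was not tested. ssc-miR-499-5p and ssc-miR-208b shared bases 2 to 7, which is 6 of the 7 seed bases.

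The genes lay in 3 short stretches and in 2 myosin genes of Sscrofa11.1. MIR1 (chr17:61894036-61894143, plus strand) and MIR133A-1 (chr17:61904781-61904883, plus strand) were 10637 bases apart, outside any other annotated gene. MIR133A-2 (chr6:106998899-106998971, minus strand) lay antisense in an intron of MIB1 and within the lncRNA LOC110261182, outside exons of both. A second exact copy of ssc-miR-1 without an annotation (chr6:107002178-107002198, minus strand) lay 3206 bases from it. MIR206 (chr7:45976293-45976372, plus strand) and MIR133B (chr7:45980138-45980217, plus strand) were 3765 bases apart between genes. MIR499 (chr17:38374118-38374197, plus strand) lay in an intron of MYH7B, and MIR208B (chr7:75667786-75667865, plus strand) in an intron of MYH7. ssc-miR-1 and both arms of ssc-miR-133a had 2 exact copies each in the genome, so their reads cannot be assigned to one locus, and the other members had 1.

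Libraries held 4954845 to 16863560 reads on miRNAs, and the values, called TPM, are reads per 1000000 of these. One read was worth 0.0593 to 0.202 TPM, and 3 reads, taken as the floor of a library, 0.178 to 0.605 TPM. ssc-miR-21-5p, the most abundant entry, took 27.9% to 60.5% of a library, with 57.2% ± 2.66 (SD, n = 3) in BF-0d against 35.5% ± 6.64 in BF-8d, and 57.4% ± 3.92 in IMF-0d against 42.5% ± 2.85 in IMF-8d. Each TPM value is a share of that total. Of the markers of other cells, 3 entries of red cells summed to 0.652 to 3.77 TPM in BF and 0.284 to 7.01 TPM in IMF libraries, and 4 of white cells to 0.454 to 2.60 TPM in BF and 0.201 to 1.10 TPM in IMF. The 4 entries of epithelial cells summed to 0.0898 to 1.90 TPM in BF and 0 to 0.757 TPM in IMF, and 2 of endothelial cells to 26.4 to 90.9 TPM in BF and 18.2 to 40.4 TPM in IMF. The 8 mesenchymal entries summed to 78691 to 107227 TPM in BF and 80337 to 110543 TPM in IMF. Among these, 2 entries of the miR-199 family had the same lowest and highest value, so the sum may count the same reads in both. The part of all these marker entries in the results below was not tested.

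ssc-miR-1 was by far the most read muscle miRNA. It averaged 1072 TPM over the 24 libraries, rank 34 of the 1587 entries, and gave 94.1% to 98.4% of the reads of the 7 entries in a library. ssc-miR-133a-3p averaged 15.8 TPM (rank 196) and ssc-miR-499-5p 14.0 TPM (rank 197). The 3 entries passed the filter of a mean of at least 1 TPM and were tested among 430. The other 4, ssc-miR-133a-5p (0.402 TPM), ssc-miR-133b (0.329 TPM), ssc-miR-206 (0.191 TPM) and ssc-miR-499-3p (0.0158 TPM), fell below it and are given as reads. All 7 together made up 0.0475% to 0.236% of the reads of a library. How evenly the library preparation captures different miRNAs was not tested, so these are shares of reads.

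**Figure D1:**
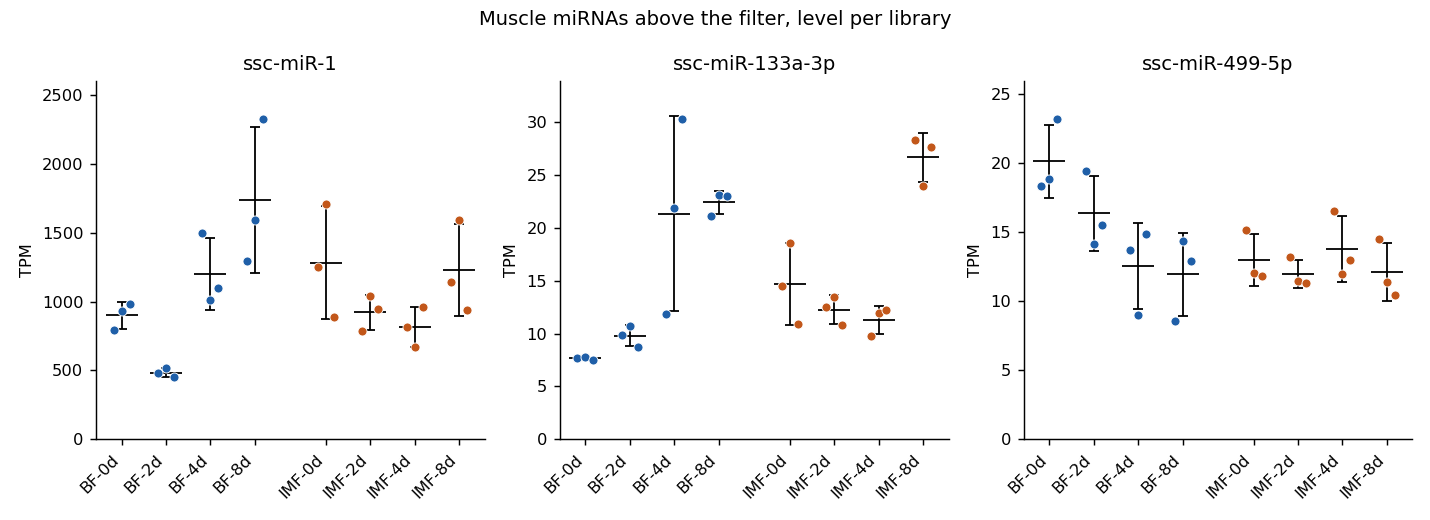
TPM (vertical axes, from 0) of ssc-miR-1, ssc-miR-133a-3p and ssc-miR-499-5p in each library of the 8 groups (horizontal axes), BF in blue and IMF in orange, with black marks for the mean ± SD of 3 libraries. ssc-miR-1 was lowest in BF-2d and highest in BF-8d, ssc-miR-133a-3p ran from 7.68 TPM in BF-0d to 26.6 TPM in IMF-8d, and ssc-miR-499-5p was highest in BF-0d.

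In BF cells, ssc-miR-1 fell from day 0 to day 2 and then rose. Its level was 792, 931 and 981 TPM in the BF-0d libraries, 484, 519 and 450 TPM in BF-2d, 1500, 1011 and 1099 TPM in BF-4d, and 1294, 1594 and 2324 TPM in BF-8d. The BF-2d libraries lay below all others of the series, BF-4d and BF-8d overlapped, and every BF-8d library lay above every BF-0d library. Of all entries, 29.8% did not overlap between BF-0d and BF-2d, 34.9% between BF-2d and BF-4d and 53.7% between BF-0d and BF-8d. From BF-0d to BF-2d the level fell by 0.89 on the log2(TPM + 1) scale (SE 0.13, adjusted p = 0.0217, limma), with 1 of the 3 members called where 4.19% of all tested entries were. A call, or DE-miRNA, is an entry with a Benjamini-Hochberg FDR under 0.05 over all 430 entries and a fold change above 1.5. From BF-2d to BF-4d it rose by 1.29 (SE 0.22, adjusted p = 0.00685, limma), again the only member among 6.05% of entries called. From BF-4d to BF-8d the difference of 0.51 (95% CI -0.07 to 1.09, adjusted p = 0.277, limma) did not pass, and none of the members was among the 3.02% called. In such bulk cultures, fewer cells of a type and less RNA per cell cannot be told apart. The call of the fall to day 2 was lost when any library but BF-2d replicate 3 was left out (adjusted p of 0.0545 to 0.112, limma), with a change of -0.83 to -0.98 in those fits. They called 0 to 4 of all 430 entries, and the fit without BF-2d replicate 3 called 42. The call of the rise to day 4 was lost when BF-4d replicate 3 was left out (1.35, adjusted p = 0.0644).

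In IMF cells, the level of ssc-miR-1 passed no test between days. It was 1253, 1707 and 885 TPM in IMF-0d, 788, 1040 and 945 TPM in IMF-2d, 818, 672 and 959 TPM in IMF-4d, and 1145, 1595 and 943 TPM in IMF-8d. Each of these groups overlapped with every other one. Between IMF-0d and IMF-2d, and between IMF-2d and IMF-4d, 0 of the 430 entries were called by limma (0% in both), with 68 and 65 at an unadjusted p under 0.05. On whole reads edgeR called 7 and 1 entries in these steps and DESeq2 9 and 2, and none of the members was among them. From IMF-4d to IMF-8d the difference was 0.57 (95% CI 0.04 to 1.09, adjusted p = 0.130, limma), and from IMF-0d to IMF-8d it was -0.05 (95% CI -0.73 to 0.64, adjusted p = 0.917).

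Comparing IMF with BF on one day, ssc-miR-1 was higher in IMF on day 2 and passed on no other day by limma. In BF-2d vs. IMF-2d the difference was 0.92 (SE 0.13, adjusted p = 0.0132, limma), a mean of 924 against 484 TPM, and this was the one member called where 12.3% of all entries were. The IMF-2d libraries all lay above the BF-2d libraries, and 33.3% of all entries did not overlap on that day. The call was lost without BF-2d replicate 1 or without any IMF-2d library (adjusted p of 0.0544 to 0.0645, limma). Those fits called 2 to 8 of all 430 entries. The fits without BF-2d replicate 2 or replicate 3 kept it and called 31 and 85. On day 4 the order was the other way, with every BF-4d library above every IMF-4d library and a difference of -0.55 (95% CI -1.06 to -0.04, adjusted p = 0.0835, limma) that did not pass. The libraries did not overlap in 50.2% of all entries, and the difference was -0.12 with median-of-ratios scaling, -0.12 by edgeR and -0.14 by DESeq2. On day 0 the difference was 0.46 (95% CI -0.17 to 1.09) and on day 8 it was -0.49 (95% CI -1.004 to 0.02), with overlapping libraries on both days. On day 8 it passed when BF-8d replicate 1 (-0.68, adjusted p = 0.00882) or IMF-8d replicate 2 (-0.70, adjusted p = 0.0393, limma) was left out, and it was -0.26 without BF-8d replicate 3, -0.17 with median-of-ratios scaling, -0.14 by edgeR and -0.20 by DESeq2. On day 0 it passed without IMF-0d replicate 3 (0.70, adjusted p = 0.0485, limma), and also on whole reads by edgeR (0.75, adjusted p = 0.0264) and DESeq2 (0.71, adjusted p = 0.0203).

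ssc-miR-133a-3p rose from day 0 to day 8 in both kinds of cell. In BF it was 7.68, 7.82 and 7.53 TPM in BF-0d, 9.90, 10.7 and 8.75 TPM in BF-2d, 11.8, 21.9 and 30.2 TPM in BF-4d, and 21.1, 23.1 and 23.0 TPM in BF-8d. Replicate 1 of BF-4d was close to the BF-2d libraries while replicate 3 was the highest of the series. The step from BF-2d to BF-4d, 0.96 (SE 0.31, adjusted p = 0.0820, limma), did not pass, and it passed when BF-4d replicate 1 was left out (1.31, adjusted p = 0.00920). From BF-0d to BF-8d the rise was 1.43 (SE 0.21, adjusted p = 3.65e-05, limma), a mean of 22.4 against 7.68 TPM. It stayed past the threshold in each fit that left out 1 library.

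In IMF cells the same miRNA passed no test up to day 4 and then rose. It was 14.5, 18.6 and 10.9 TPM in IMF-0d, 12.5, 13.5 and 10.8 TPM in IMF-2d, 9.77, 11.9 and 12.2 TPM in IMF-4d, and 28.3, 23.995 and 27.7 TPM in IMF-8d. The first 3 groups overlapped, and every IMF-8d library lay above all of them and above the BF-8d libraries. Of all entries, 51.2% did not overlap between IMF-8d and BF-8d, 38.4% between IMF-4d and IMF-8d and 48.8% between IMF-0d and IMF-8d. From IMF-4d to IMF-8d the level rose by 1.17 (SE 0.16, adjusted p = 0.00363, limma), the only member among the 13% of entries called, also without any 1 library. From IMF-0d to IMF-8d it rose by 0.84 (SE 0.20, adjusted p = 0.0202, limma), the only member among the 30.5% called. That call was lost without IMF-0d replicate 1, IMF-8d replicate 1 or IMF-8d replicate 3 (adjusted p of 0.0537 to 0.0685, limma) and with the libraries scaled per 1000000 reads other than ssc-miR-21-5p (0.44, adjusted p = 0.133).

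On day 0 ssc-miR-133a-3p was higher in IMF cells, with all IMF-0d libraries above all BF-0d libraries, on a day when 47.7% of all entries did not overlap. The difference was 0.82 (SE 0.21, adjusted p = 0.0330, limma), a mean of 14.7 against 7.68 TPM, and with ssc-miR-499-5p it made 2 of 3 members called in BF-0d vs. IMF-0d, where 29.3% of all entries were. Same-numbered libraries of day 0 deviated together, and with the replicate number as a block the adjusted p was 0.0470 (limma). The call held without IMF-0d replicate 3 and was lost without any other single library (adjusted p of 0.0560 to 0.103). On day 4 the means stood the other way, 11.3 TPM in IMF against 21.3 TPM in BF, with overlapping libraries and a difference of -0.77 (95% CI -1.43 to -0.12, adjusted p = 0.0640, limma), which passed when BF-4d replicate 1 was left out (-1.13, adjusted p = 0.00535). It was -0.49 without BF-4d replicate 3, -0.37 with median-of-ratios scaling (adjusted p = 0.399) and -0.47 by edgeR. By this limma test none of the members was called on day 4 or day 8, where 36.3% and 37.2% of all entries were. ssc-miR-133a-3p was called on day 8 by edgeR (0.60, adjusted p = 0.00978), and on day 4 with a pseudocount of 0.1 (adjusted p = 0.0369, limma), in 1 fit of all 24 libraries (adjusted p = 0.00643) and with the replicate block (adjusted p = 0.0387).

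ssc-miR-499-5p was lower in BF-8d than in BF-0d and passed no test between days in IMF cells. Its level was 18.4, 18.9 and 23.2 TPM in BF-0d, 19.4, 14.1 and 15.6 TPM in BF-2d, 13.7, 8.99 and 14.9 TPM in BF-4d, and 8.57, 14.4 and 12.9 TPM in BF-8d. In IMF cells it was 15.2, 12.03 and 11.8 TPM in IMF-0d, 13.2, 11.5 and 11.3 TPM in IMF-2d, 16.5, 11.97 and 12.96 TPM in IMF-4d, and 14.5, 11.4 and 10.5 TPM in IMF-8d. Every BF-0d library lay above every BF-8d and every IMF-0d library, and the 4 IMF groups overlapped. The shares of all entries without overlap were 53.7% for BF-0d and BF-8d and 47.7% for BF-0d and IMF-0d. From BF-0d to BF-8d it fell by 0.73 (SE 0.24, adjusted p = 0.0195, limma). In BF-0d vs. IMF-0d it was lower in IMF, with a difference of -0.59 (SE 0.17, adjusted p = 0.0426, limma). The day 0 call was lost with the replicate number as a block (adjusted p = 0.0845, limma), with median-of-ratios scaling (-0.44, adjusted p = 0.111), by edgeR and DESeq2, and without any single library but IMF-0d replicate 1. The BF-0d to BF-8d call was lost without BF-0d replicate 3 (-0.63, adjusted p = 0.112) or BF-8d replicate 1 (-0.53, adjusted p = 0.0719).

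From BF-0d to BF-8d all 3 tested members were called, where 42.8% of all entries were, with ssc-miR-1 up by 0.91 (SE 0.22, adjusted p = 0.00280, limma) beside the values of ssc-miR-133a-3p and ssc-miR-499-5p above. The share of ssc-miR-21-5p fell between the same groups. Scaled per 1000000 reads other than ssc-miR-21-5p, the rise of ssc-miR-1 was 0.32 (adjusted p = 0.332, limma) and did not pass, that of ssc-miR-133a-3p was 0.92 (adjusted p = 0.00773), and the fall of ssc-miR-499-5p was -1.32 (adjusted p = 0.00191). Scaled by median-of-ratios, the changes were 0.72, 1.25 and -0.90 and all passed. With 3 libraries against 3, the smallest p an exact two-sided permutation test can give is 0.1, and each of these 3 differences reached it. The libraries of the 2 groups did not overlap in 53.7% of all tested entries.

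**Figure D2:**
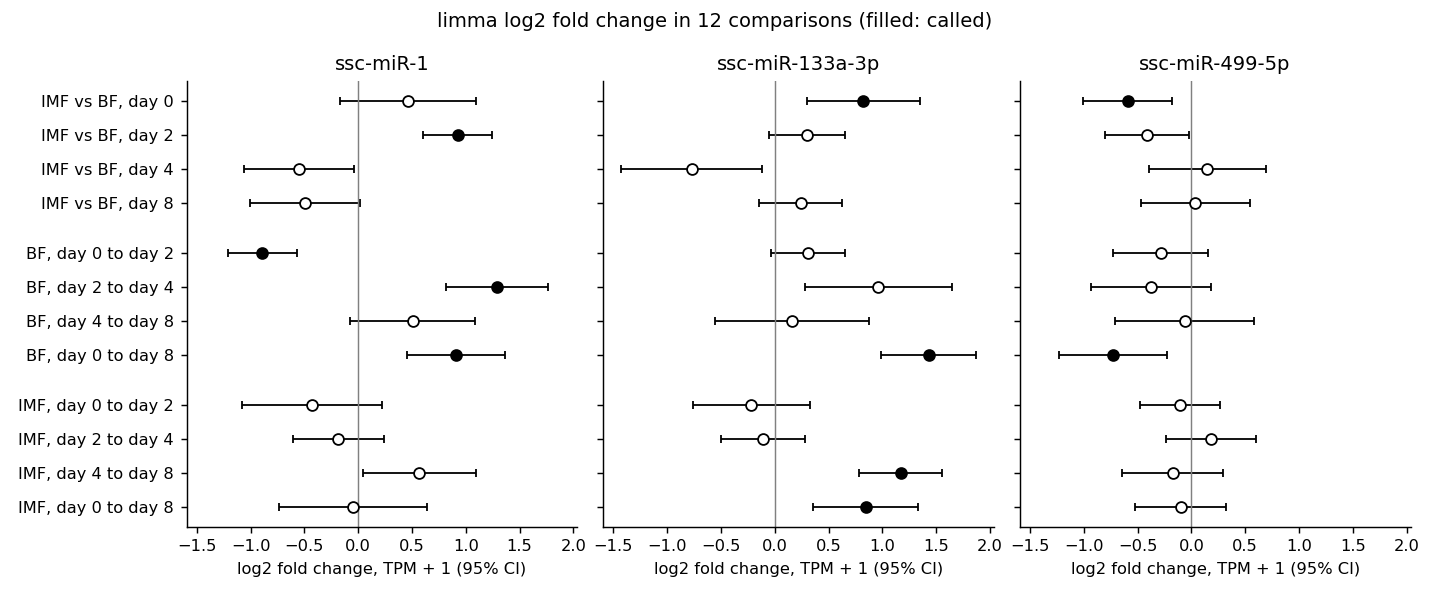
log2 fold change of TPM + 1 with its 95% CI (horizontal axes) for ssc-miR-1, ssc-miR-133a-3p and ssc-miR-499-5p in 12 comparisons (rows), later minus earlier day or IMF minus BF, with filled points for calls. ssc-miR-1 had its widest change from BF-2d to BF-4d (1.29), ssc-miR-133a-3p was called in both sources from day 0 to day 8, and ssc-miR-499-5p was called on day 0 between sources and from BF-0d to BF-8d.

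A moderated F test on all 24 libraries asked whether the time courses differed between the sources (interaction of source and day). ssc-miR-1 (adjusted p = 0.00198, limma F test) and ssc-miR-133a-3p (adjusted p = 0.00303) passed and ssc-miR-499-5p (adjusted p = 0.133) did not, 2 of 3 members where 31.6% of all entries passed. ssc-miR-499-5p passed with median-of-ratios scaling (adjusted p = 0.0213, limma), by edgeR (adjusted p = 0.0449) and by DESeq2 (adjusted p = 0.0108). Without the libraries numbered 2, ssc-miR-133a-3p no longer passed (adjusted p = 0.146). The steps were then compared one by one, a test added after the values were seen. From day 2 to day 4 the change of ssc-miR-1 was lower in IMF, with a difference between the changes of -1.48 (SE 0.34, adjusted p = 0.00985, limma), as was that of ssc-miR-133a-3p, with -1.07 (SE 0.32, adjusted p = 0.0369), 2 of 3 members where 7.67% of entries passed. From day 4 to day 8 the change of ssc-miR-133a-3p was higher in IMF by 1.01 (SE 0.32, adjusted p = 0.0361, limma), among 12.3% of entries. From day 0 to day 2 none of the members passed, among 2.33% of entries. With median-of-ratios scaling the difference of ssc-miR-1 passed (-1.19, adjusted p = 0.0490), and those of ssc-miR-133a-3p did not, with adjusted p = 0.152 from day 2 to day 4 and 0.0677 from day 4 to day 8. Over the whole span from day 0 to day 8 the change of ssc-miR-1 was lower in IMF, with a difference of -0.95 (SE 0.34, adjusted p = 0.0432, limma), among 20.7% of entries, and it did not pass with median-of-ratios scaling (adjusted p = 0.0909) or with the replicate number as a block (adjusted p = 0.0516). The whole-span changes of ssc-miR-133a-3p (-0.58, adjusted p = 0.203, limma) and ssc-miR-499-5p (0.63, adjusted p = 0.133) did not pass. With median-of-ratios scaling that of ssc-miR-499-5p did (0.77, adjusted p = 0.0460, limma).

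Averaged over the 4 days, none of the 3 members was called between IMF and BF, where 31.6% of all entries were. The difference was 0.09 (95% CI -0.16 to 0.33, adjusted p = 0.564, limma) for ssc-miR-1, 0.15 (95% CI -0.09 to 0.38, adjusted p = 0.277) for ssc-miR-133a-3p and -0.21 (95% CI -0.42 to 0.01, adjusted p = 0.0954) for ssc-miR-499-5p. The median of all 430 entries in this comparison was -0.22, which median-of-ratios scaling moved by 0.21, and the sign for ssc-miR-499-5p then turned (0.040). Over 7 other settings the difference was 0.09 to 0.37 for ssc-miR-1 (adjusted p of 0.0108 to 0.720, limma, edgeR or DESeq2). For ssc-miR-133a-3p it was 0.15 to 0.43 (adjusted p of 0.00505 to 0.460). The lowest adjusted p of both thus passed the FDR threshold, with IMF higher. Every difference stayed below the fold change needed for a call, and none of the members was called in these settings.

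The levels of the 8 groups spanned 3.59 times for ssc-miR-1 (BF-2d to BF-8d), 3.47 times for ssc-miR-133a-3p (BF-0d to IMF-8d) and 1.69 times for ssc-miR-499-5p (BF-8d to BF-0d). In falling order, ssc-miR-1 ran BF-8d, IMF-0d, IMF-8d, BF-4d, IMF-2d, BF-0d, IMF-4d and BF-2d, and of these neighbours only IMF-4d and BF-2d did not overlap. ssc-miR-133a-3p ran IMF-8d, BF-8d, BF-4d, IMF-0d, IMF-2d, IMF-4d, BF-2d and BF-0d, where IMF-8d stood clear of BF-8d and BF-2d of BF-0d. Of all entries, 51.2% did not overlap between IMF-8d and BF-8d and 29.8% between BF-0d and BF-2d. For IMF-4d and BF-2d this share was not computed. For ssc-miR-499-5p all 7 neighbouring pairs overlapped.

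The ratio of ssc-miR-1 to ssc-miR-133a-3p, which come from neighbouring genes, was not fixed. A library held 34.1 to 130 reads of ssc-miR-1 per read of ssc-miR-133a-3p, with a median of 73.2. In BF cells the ratio was 117 ± 13.7 (SD, n = 3) in BF-0d, 49.6 ± 1.62 in BF-2d, 69.8 ± 49.6 in BF-4d and 77.1 ± 21.1 in BF-8d. In IMF cells it was 86.4 ± 5.30, 75.9 ± 12.2, 72.9 ± 14.5 and 47.0 ± 17.2 in the same order of days. The BF-0d and BF-2d libraries were far apart and the BF-4d libraries ran from 36.3 to 127. Such ratios do not depend on how libraries were scaled. The ratio of ssc-miR-133a-3p to ssc-miR-499-5p was 0.386 ± 0.0529 in BF-0d and 1.95 ± 0.453 in BF-8d, and 1.14 ± 0.351 in IMF-0d and 2.23 ± 0.366 in IMF-8d, without overlap between day 0 and day 8 in either source.

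**Figure D3:**
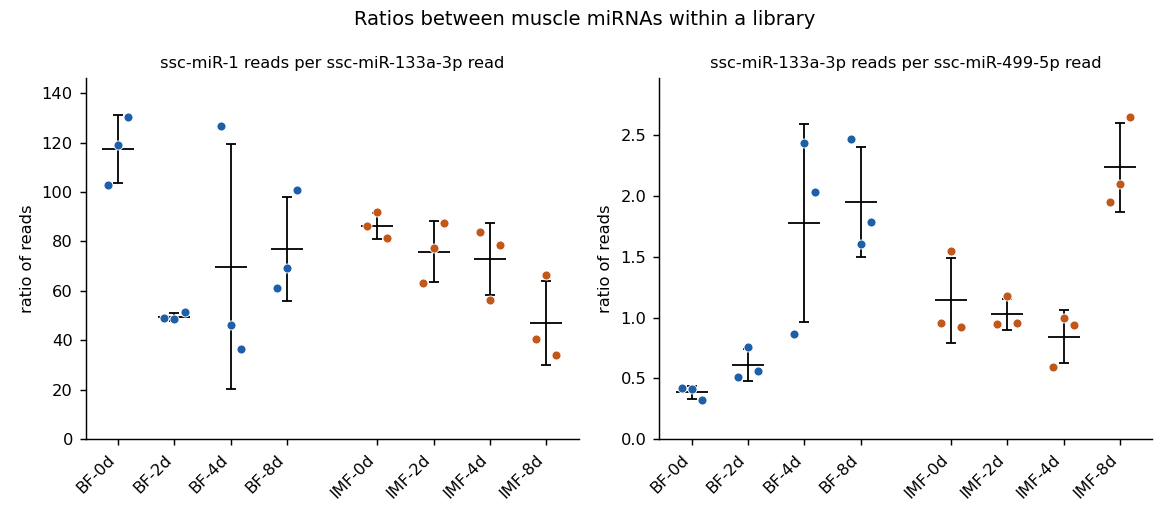
Reads of ssc-miR-1 per read of ssc-miR-133a-3p (left) and of ssc-miR-133a-3p per read of ssc-miR-499-5p (right), one point per library, BF in blue and IMF in orange, with black marks for the mean ± SD of 3 libraries. The left ratio was lowest in IMF-8d (mean 47.0) and highest in BF-0d (mean 117), and the right one was lowest in BF-0d (mean 0.386).

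Over the 24 libraries, ssc-miR-1 and ssc-miR-133a-3p had a Pearson r of 0.59 (Spearman rho 0.65) on log2(TPM + 1), and an r of 0.61 within the 12 BF and 0.57 within the 12 IMF libraries. ssc-miR-133a-3p and ssc-miR-499-5p had an r of -0.57 (rho -0.54), with -0.69 in BF and -0.25 in IMF. These are descriptions over libraries that share groups and days. The tested entries most like ssc-miR-133a-3p over the 24 libraries were ssc-miR-452 (r = 0.91), ssc-miR-224 (0.89) and ssc-miR-210 (0.89). ssc-miR-210, the miRNA induced by low oxygen, was 17.8 ± 2.39 TPM (SD, n = 3) in BF-0d and 498 ± 103 TPM in BF-8d, 67.9 ± 8.60 TPM in IMF-0d and 258 ± 44.1 TPM in IMF-8d. ssc-miR-452 was 0.110 ± 0.143 TPM in BF-0d, 19.3 ± 8.01 TPM in BF-8d, 2.02 ± 0.278 TPM in IMF-0d and 26.8 ± 3.61 TPM in IMF-8d. Those most like ssc-miR-1 were ssc-miR-96-5p (r = 0.70), ssc-miR-224 (0.68) and novel_miR_732 (0.67), and those most like ssc-miR-499-5p were novel_miR_633 (0.76), ssc-miR-99a-5p (0.75) and ssc-miR-331-5p (0.71).

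ssc-miR-206, the myomiR of skeletal muscle and of myoblasts with the seed of ssc-miR-1, had at most 9 reads in a library. It had 49 reads in all 24 libraries against 272222 reads of ssc-miR-1, or 0.0180% of the pair (95% CI 0.0136% to 0.0238%, Wilson). The BF libraries held 5, 0 and 3 reads on day 0, none on days 2 and 4, and 0, 1 and 0 on day 8. The IMF libraries held 2, 4 and 9 reads on day 0, 0, 0 and 7 on day 2, 9, 1 and 1 on day 4, and 0, 0 and 7 on day 8. Reads were thus found in 3 of 12 BF and 8 of 12 IMF libraries, 9 and 40 reads, with overlap between the sources. Pooled, this is 0.0714 reads per 1000000 in BF (95% Poisson interval 0.0326 to 0.135) and 0.291 in IMF (0.208 to 0.397), where the intervals cover counting error only and the pools are not replicates. By the floor of 3 reads over the 3 libraries of a group, which is not the Poisson limit, a count of 0 allows up to 0.1001 reads per 1000000 in BF-2d and up to 0.103 in BF-4d.

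ssc-miR-133b, the neighbour of ssc-miR-206, had 90 reads against 4105 of ssc-miR-133a-3p, or 2.15% of the pair (95% CI 1.75% to 2.63%, Wilson). Its libraries held 1, 2 and 2 reads in BF-0d, 1, 4 and 1 in BF-2d, 2, 6 and 11 in BF-4d, and 9, 2 and 2 in BF-8d. In IMF cells they held 2, 4 and 0 reads on day 0, 1, 2 and 0 on day 2, 1, 4 and 3 on day 4, and 10, 12 and 8 on day 8. In IMF-8d it was above the other IMF libraries, as was ssc-miR-133a-3p. Its share of the pair lay between 0.824% (IMF-2d) and 2.86% (BF-4d) in the 8 groups. With 20 shared bases the 2 entries may hold some of the same reads, so ssc-miR-133b is uncertain.

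**Figure D4:**
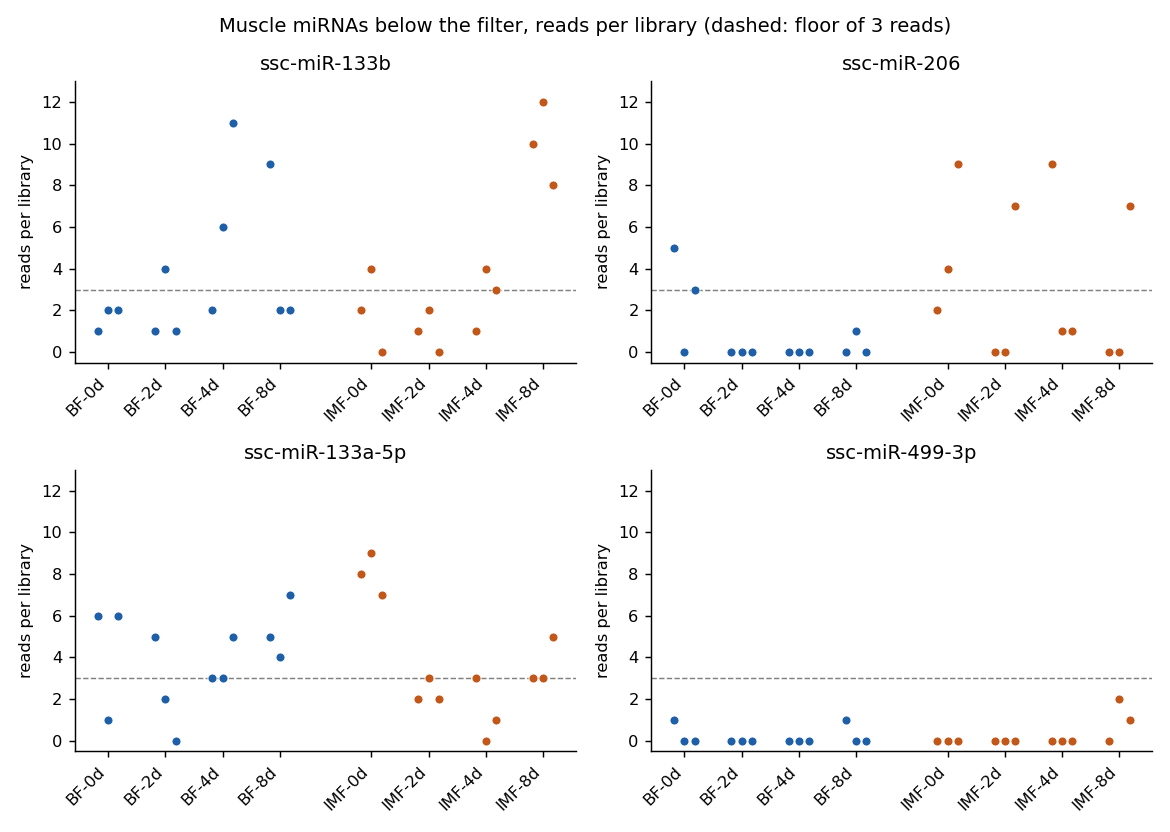
Whole reads (vertical axes) of the 4 entries below the filter, ssc-miR-133b, ssc-miR-206, ssc-miR-133a-5p and ssc-miR-499-3p, in each of the 24 libraries by group, BF in blue and IMF in orange, with a dashed line at the floor of 3 reads. ssc-miR-206 had reads in 3 BF and 8 IMF libraries, and no library held more than 12 reads of any of the 4.

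The other arms of the hairpins were rare. ssc-miR-133a-5p had 93 reads against 4105 of its 3p arm. The 3p arm thus held 97.8% of the reads of both arms (95% CI 97.3% to 98.2%, Wilson), pooled over the 2 exact copies in the genome. The 0 to 9 reads of ssc-miR-133a-5p per library were highest in IMF-0d (8, 9 and 7 reads). This order differed from that of the 3p arm, which was highest in IMF-8d, where the 5p arm had 3, 3 and 5 reads. In TPM, ssc-miR-133a-5p was 0.821 ± 0.142 in IMF-0d and 0.816 ± 0.533 in BF-8d (SD, n = 3). ssc-miR-499-3p had 5 reads in 4 libraries against 3734 reads of ssc-miR-499-5p, and the 5p arm held 99.9% (95% CI 99.7% to 99.9%, Wilson). In none of the 24 libraries did ssc-miR-499-3p exceed the floor of 3 reads.

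Other miRNAs with known roles in myoblasts and satellite cells, a list of 24 names chosen with earlier results of these data known, were compared in the same way. Of its 23 tested entries, 10 were called averaged over the 4 days, 0 higher and 10 lower in IMF, where 9.77% of all entries were higher and 21.9% lower. The median of the list was -0.47 and that of all entries -0.22. The called entries include both arms of a hairpin and several members of shared families, so these counts are not of independent units. The 4 with the widest difference were ssc-miR-378 (-1.54, SE 0.09, adjusted p = 3.45e-13, limma), which represses the MyoR inhibitor of MyoD, ssc-miR-424-5p (-1.18) and ssc-miR-503 (-1.11), which halt the cell cycle of myoblasts, and ssc-miR-29b (-0.98), which lowers extracellular matrix genes. With median-of-ratios scaling 8 were lower and 0 higher, where 53 of all 430 entries were lower and 47 higher, and by edgeR 8 were lower and 1 higher, where 53 were lower and 61 higher. On single days, 0 were higher and 9 lower in IMF on day 0 (58 higher and 68 lower of all 430), 0 and 2 on day 2 (25 and 28), 0 and 12 on day 4 (32 and 124) and 2 and 9 on day 8 (52 and 108). For day 0, edgeR gave 2 higher and 5 lower (76 and 37 of all 430) and DESeq2 2 and 6 (70 and 41). For day 2, leaving out 1 library gave 0 higher and 1 (1 and 1 of all 430 without IMF-2d replicate 1) to 7 lower (26 and 59 without BF-2d replicate 3). With median-of-ratios scaling 5 were higher and 10 lower on day 4 (52 and 68 of all 430) and 5 higher and 7 lower on day 8 (83 and 64). From BF-0d to BF-8d 12 of the 23 rose and 3 fell, where 27.9% of all entries rose and 14.9% fell. From IMF-0d to IMF-8d 9 rose and 0 fell, where 19.8% rose and 10.7% fell. Without ssc-miR-21-5p in the scaling these counts became 6 and 9 in BF, where 56 of all 430 entries rose and 142 fell, and 4 and 1 in IMF, where 29 rose and 98 fell.

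**Figure D5:**
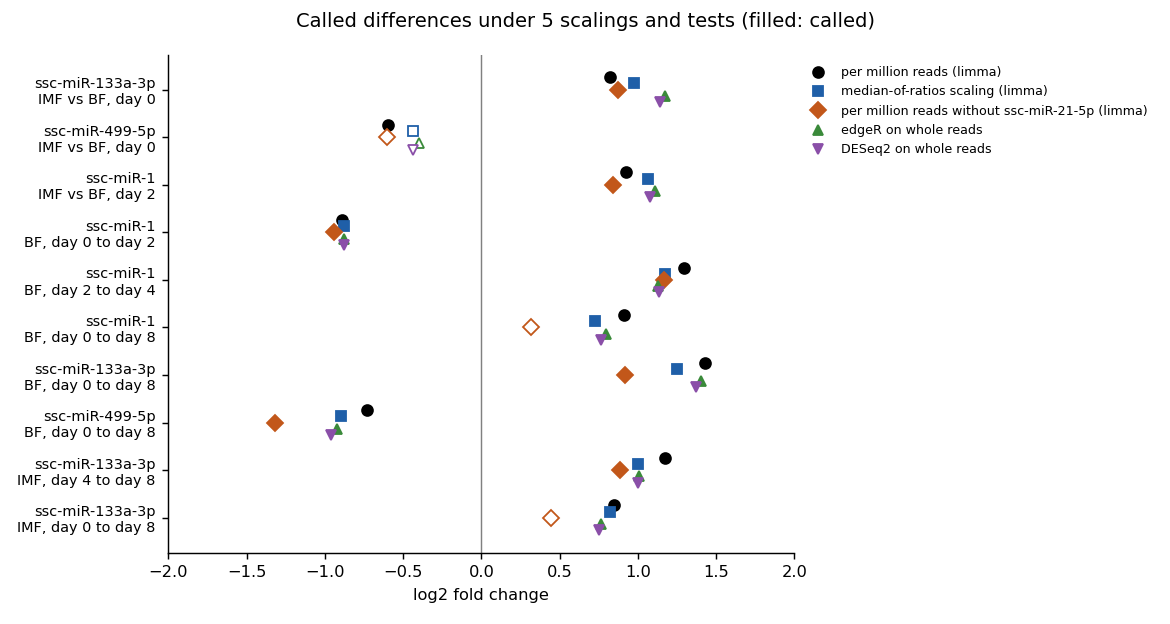
log2 fold change (horizontal axis) of each called difference of a muscle miRNA (rows) under 3 scalings with limma and under edgeR and DESeq2 on whole reads, each with its own marker and filled where called. The directions were the same under the 5 ways, and ssc-miR-1 from BF-0d to BF-8d was 0.91 per 1000000 reads and 0.32 per 1000000 reads other than ssc-miR-21-5p.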

How the data were processed

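Small RNA of 24 libraries was sequenced as 50-nt single-end reads. The authors mapped clean reads to Sscrofa11.1 without mismatches by Bowtie, matched them to miRBase, predicted further miRNAs with miRDeep2 and tested with DESeq2. The values the authors deposited are in RPM, named TPM: each column sums to 1000000 over 1587 entries, and 100% of the 38088 values lay within 0.01 of a whole number of reads, so whole reads were recovered. No molecular identifiers are named, so intervals and floors cover counting error only.

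Entries averaging 1 TPM or more over the libraries were tested on log2(TPM + 1), 2 groups at a time with limma 3.58.1 (eBayes with trend, R 4.3.3), two-sided, with calls at FDR under 0.05 and fold change above 1.5. The interaction and the mean over 4 days used all 24 libraries, some of which may share piglets, so those p-values may be too small. Means of TPM are printed beside log2 changes of TPM + 1, which understate changes of low entries. A log2 difference is later minus earlier day, or IMF minus BF. Alternatives were a pseudocount of 0.1, no filter, 1 fit of all libraries, a replicate block, median-of-ratios scaling, edgeR 4.0.16 and DESeq2 1.42.0 on whole reads, leaving out libraries, and, added after the values were seen, scaling without ssc-miR-21-5p. The comparison of single steps between sources was also added then. Deviations of same-numbered libraries correlated over 0.1 in every pair in 1 of 12 comparisons, IMF against BF on day 0 (0.188, 0.509 and 0.205), and the pairing there comes from the data, not the labels.

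The members and lists were chosen with earlier results of these data known. Named are all members, the 3 tested entries most correlated with each tested member, the 4 called entries of the myoblast list with the widest difference, and ssc-miR-21-5p for scale. Cell marker lists covered red, white, endothelial, epithelial and mesenchymal cells, and also neurons (1 entry, 22.2 to 66.8 TPM in BF and 14.5 to 26.0 TPM in IMF) and hepatocytes (2 entries, 3.74 to 15.8 TPM in BF and 5.03 to 15.1 TPM in IMF). The tests were tried on simulated data. Mature sequences and positions were read from the RefSeq annotation of Sscrofa11.1. Matplotlib 3.10.9, SciPy 1.17.1, pandas 2.3.3, NumPy 2.4.6 and Python 3.11.15 were also used.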

Additional observations from a re-analysis of the deposited data

Results flagged for a closer look

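The time course of ssc-miR-1 differed between IMF and BF (adjusted p = 0.00198, limma interaction F test over 24 libraries), with a fall and a rise in BF cells and no step past the threshold in IMF cells. That of ssc-miR-133a-3p differed as well (adjusted p = 0.00303, limma interaction F test), with its rise between day 4 and day 8 in IMF cells. Both were picked out because the effect of time was not the same in the 2 sources. No group had the 4 libraries needed to look for a library far from the others.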

How the results depend on the processing

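Of the members called per comparison, the number changed as follows. With no filter on low values it was 0 on day 0 and 0 on day 2 between IMF and BF, 0 from BF-0d to BF-2d, 0 from BF-2d to BF-4d, 1 from BF-0d to BF-8d and 0 from IMF-0d to IMF-8d. Of all 1587 entries, these fits called 76, 2, 5, 0, 155 and 70 in the same order. Without the filter more entries were adjusted for and the spread was estimated anew, and which of these lost the calls was not tested. On day 0 it was 1 with median-of-ratios scaling (101 of all 430 entries) and 1 without ssc-miR-21-5p in the total (103). On day 4 it was 1 with a pseudocount of 0.1 (165 of all 430 entries) and 1 in 1 fit of all 24 libraries (183), in each case ssc-miR-133a-3p. That fit also gave 2 from BF-2d to BF-4d (104). On day 8 edgeR called 1, ssc-miR-133a-3p (0.60), where it called 151 of all 430 entries. From IMF-0d to IMF-8d the number of members was 0 without ssc-miR-21-5p in the total, where 127 of all 430 entries were called. Leaving out 1 library at a time, the number ranged from 0 to 2 on day 0, 0 to 1 on days 2, 4 and 8, 0 to 1 from BF-0d to BF-2d, 0 to 2 from BF-2d to BF-4d, 2 to 3 from BF-0d to BF-8d and 0 to 1 from IMF-0d to IMF-8d, and leaving out a replicate number it ranged from 1 to 2 for the interaction. The other counts stayed within 1.5 times.

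With the replicate number as a block, the calls were 1 on day 0, 0 on day 2, 1 on day 4 (ssc-miR-133a-3p, adjusted p = 0.0387), 0 from BF-0d to BF-2d and 2 from BF-2d to BF-4d. Of all 430 entries, the block called 127, 9, 161, 0 and 42 in the same order. Only on day 0 did every pair deviate together, so elsewhere the libraries share only a number. In the comparison of single steps the block also lost ssc-miR-1 from day 0 to day 8 between the sources (adjusted p = 0.0516), and it changed no other call.

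Signs turned for values that were not called in any fit. The difference of ssc-miR-499-5p averaged over the days was 0.040 with median-of-ratios scaling, 0.051 by edgeR and 0.026 by DESeq2. That of ssc-miR-133a-3p from IMF-2d to IMF-4d was 0.048, 0.036 and 0.013 by the same tools, and from BF-4d to BF-8d it was -0.24 without ssc-miR-21-5p in the total. Without 1 library, ssc-miR-499-5p ranged from -0.057 to 0.28 on day 4, -0.17 to 0.17 on day 8, -0.27 to 0.14 from BF-4d to BF-8d, -0.17 to 0.0036 from IMF-0d to IMF-2d and -0.22 to 0.0090 from IMF-0d to IMF-8d. ssc-miR-133a-3p ranged from -0.19 to 0.45 from BF-4d to BF-8d, and ssc-miR-1 from -0.29 to 0.19 from IMF-0d to IMF-8d and, averaged over the days, from -0.033 to 0.20. The cause was not tested.

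The interaction of ssc-miR-499-5p passed with median-of-ratios scaling (adjusted p = 0.0213) and by edgeR and DESeq2. Median-of-ratios scaling moved the median of all entries by 0.12, 0.13, 0.34 and 0.25 on days 0, 2, 4 and 8 between IMF and BF, by -0.15 from BF-0d to BF-8d, and by 0.13 and -0.15 in the last 2 steps of IMF. Depth limits ssc-miR-206, ssc-miR-133b and the rare arms to counts near the floor.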
